A study of Homo sapiens with 6 samples.

Results

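The genes examined here encode receptor tyrosine kinases of the MET, AXL, DDR and FGFR families and the intracellular Sprouty and SPRED proteins that restrain signalling downstream of such receptors. They were taken from a list of 10 genes (*MET*, *MST1R*, *AXL*, *DDR1*, *FGFR2*, *FGFR3*, *SPRY2*, *SPRY4*, *SPRED1* and *SPRED2*). A gene was measured when a feature of the array carried its symbol and no other, which held for 9 of the 10, out of 33616 genes measured in this way on 138745 features. The only feature of *DDR1* also carries the symbol of a microRNA gene, so *DDR1* was left out. Each of the other 9 genes had exactly 1 feature. CaSki is an established human cervical cancer line that carries integrated HPV16. Cells received 10 nM calcitriol, the active form of vitamin D, or 0.1% ethanol as vehicle, for 24 h in medium with charcoal-stripped serum. Total RNA was hybridized to 6 Clariom D arrays, 3 pools from calcitriol-treated and 3 pools from vehicle-treated cells. Every pool mixed RNA from replicates of the same independent experiments of a single cell line, so the p-values reflect variation among pools of shared material, much of which can be technical.

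Receptor tyrosine kinases bind a ligand outside the cell, phosphorylate one another and recruit adaptor proteins that switch on RAS and the RAF-MEK-ERK kinase chain. ERK in turn raises transcription of feedback genes, among them the Sprouty genes, whose proteins dampen the same pathway, while SPRED proteins bring the RAS inhibitor neurofibromin to the membrane. In squamous epithelia and carcinomas, MET and AXL are known for their part in cell scattering, migration and invasion.

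The RefSeq sequences before the start sites of *MET* and *AXL* are shown because these are the receptor genes whose calcitriol and vehicle pools did not overlap. They run 5′ to 3′ over the 250 bases before the annotated start (GRCh38.p14, *MET* on the plus strand at chr7:116671946-116672195, *AXL* on the plus strand at chr19:41218973-41219222), and capitals mark the GC box GGGCGG, read on both strands.
MET: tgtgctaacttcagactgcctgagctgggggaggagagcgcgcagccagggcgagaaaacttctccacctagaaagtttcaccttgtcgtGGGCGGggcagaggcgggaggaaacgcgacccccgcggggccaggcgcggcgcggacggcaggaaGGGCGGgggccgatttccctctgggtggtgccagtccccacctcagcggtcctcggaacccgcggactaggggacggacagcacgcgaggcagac
AXL: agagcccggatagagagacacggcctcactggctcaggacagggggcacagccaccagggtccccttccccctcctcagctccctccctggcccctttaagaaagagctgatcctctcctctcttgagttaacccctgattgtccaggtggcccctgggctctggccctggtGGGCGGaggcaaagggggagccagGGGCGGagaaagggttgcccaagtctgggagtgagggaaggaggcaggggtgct
All 10 genes had at least 1 start site in the table, 25 windows of 300 bases in all (250 before and 50 after each start). Of these, 8 belong to *DDR1*, some of them overlapping, and 5 to *FGFR2*, so the counts below are of windows and not of genes. The GC box occurred in 15 of the 25 windows and in 45% of all 35116 windows of that length. Matches of other motifs lay near starts of *MET*, *SPRED2*, *AXL*, *DDR1*, *FGFR2* and *SPRY4*. Short stretches around a match of *MET*, of *SPRED2* and of *AXL* follow, with the match in capitals. The first holds the E-box CACGTG at chr7:116672187-116672216 (plus strand), the second 1 of the 2 matches of the AP-1 motif TGANTCA at the second annotated start of *SPRED2*, chr2:65366767-65366795 (minus strand). The third holds GGGTCA, a hexamer bound by nuclear receptors, at the second annotated start of *AXL*, chr19:41226699-41226728 (plus strand).
MET: gaggcagacagaCACGTGctggggcgggca
SPRED2: taaccctcggaTGACTCAtccggtacaat
AXL: cagatacacgcaGGGTCAcaaacataccag
The E-box was present in 1 of the 25 windows and in 7.26% of all windows, the AP-1 motif in 2 and in 7.71%. Of the hexamers bound by nuclear receptors, GGTTCA was in 0 of the 25 windows and in 8.62% of all, GGGTCA in 5 and in 14.1%, and AGGTCA in 3 and in 13.8%, and none of them lay in the windows of *MET* or *SPRED2*. The ETS motif CCGGAAGT was in 0 of the 25 windows and in 4.14% of all. GGGTCA lay in windows of *AXL*, *DDR1* and *FGFR2*, and AGGTCA in windows of *DDR1*, *FGFR2* and *SPRY4*. The 2 windows with the AP-1 motif were of *DDR1* and *SPRED2*. These matches describe the sequence and are not evidence of binding.

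Values are the deposited log2 signals, and differences are calcitriol minus vehicle, fitted with limma over all features. A call, lower or higher, required a 1.5-fold difference or more together with p under 0.05 before adjustment, a weaker criterion than an adjusted p. *CYP24A1*, the gene of the enzyme that breaks down calcitriol, had signals of 11.68, 12.82 and 13.27 in the calcitriol pools and 4.90, 4.31 and 5.77 in the vehicle pools, and was the only feature of all with an adjusted p under 0.05 (limma, adjusted p = 0.0137), that is 0.000721% of them. No feature passed that threshold in limma without calcitriol pool 2, calcitriol pool 3, vehicle pool 1 or vehicle pool 2, or with ordinary variances, and 7501 features (5.41%) had p under 0.05 before adjustment with all arrays. All 8 measured epithelial markers, among them *KRT5*, *EPCAM* and *CDH1*, were above the negative controls, with mean signals of 11.8 to 19.0 in calcitriol pools and 12.3 to 19.1 in vehicle pools. Of the measured markers of fibroblasts, endothelium and leukocytes, only *COL1A1* and *CD68* were above them. The level of the negative controls was 6.32, the 95th percentile of 612 control features, whose median was 4.44. The mean signal of the 8229 coding genes above that level was 9.80, 10.02 and 9.86 on the calcitriol arrays and 10.01, 10.16 and 10.02 on the vehicle arrays, and their median log2 difference was -0.16. The 8 exogenous control RNAs, which do not come from the cells, had a median log2 difference of -0.31, with single values from -0.63 to -0.13.

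Of the 9 measured genes, 2 were called lower with calcitriol, *MET* and *SPRED2*, and 0 were called higher. Among coding genes above the negative controls, 4.31% were called lower and 0.219% higher. No gene of the 9 passed after adjustment over all features, the adjusted p-values of limma being 0.915 or above, while *MET* and *SPRED2* had p under 0.05 before adjustment. The signals of *MET*, *MST1R*, *AXL*, *FGFR2*, *SPRED1* and *SPRED2* were above the negative controls on all 6 arrays, and those of *FGFR3*, *SPRY2* and *SPRY4* were below them on all 6. Of the 6 genes above the controls, 5 had a negative log2 difference, as had 78% of the coding genes above them, and their median was -0.34, but *FGFR2* and *SPRED1* turned positive with the arrays centred on the exogenous control RNAs.

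**Figure D1:**
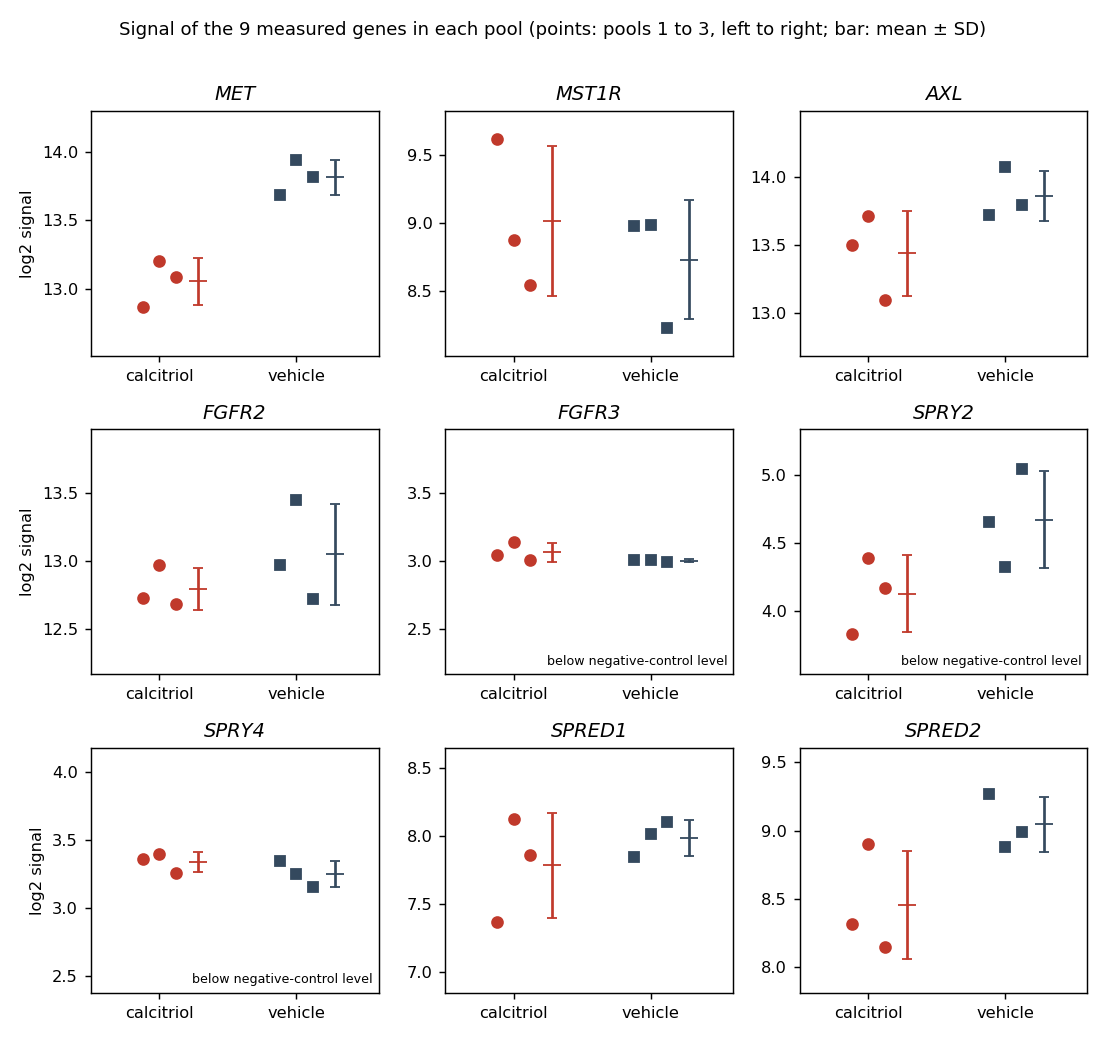
Log2 signal (vertical axes, each spanning the same number of log2 units) of the 9 genes in the 3 calcitriol pools (red circles) and the 3 vehicle pools (grey squares), with the mean ± SD beside them. The calcitriol pools of MET and of AXL lie below all vehicle pools, while 1 calcitriol pool of SPRED2 reaches into the range of the vehicle pools.

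*MET* (chromosome 7) encodes the receptor of hepatocyte growth factor (HGF), a ligand that drives scattering and invasive growth of epithelial cells. Its signal was 12.87, 13.20 and 13.09 in the calcitriol pools, against 13.69, 13.94 and 13.82 in the vehicle pools. All calcitriol pools lay below all vehicle pools, and the spread within each group was small (SD 0.17 with calcitriol and 0.13 with vehicle, n = 3 pools each). The log2 difference was -0.76 (standard error 0.18, 95% interval -1.17 to -0.36), a 1.70-fold lower signal, with p = 0.00226 before and 0.915 after adjustment in limma, and 0.1 in an exact two-sided permutation test of the 6 arrays, the smallest p that 3 pools against 3 allow. Of the 8229 coding genes above the negative controls, 113 (1.37%) had a more negative difference. In bulk RNA, less *MET* RNA per cell and fewer cells with it cannot be told apart. The call was lost when the arrays were centred on the exogenous control RNAs (log2 difference -0.42), and it was kept when each array was centred on the coding genes above the negative controls (-0.59).
The coding genes whose signal ran closest to that of *MET* over the 6 arrays were *CAPN2* (Pearson r = 0.995), the large subunit gene of a calcium-dependent protease, *PKP2* (0.994), a desmosome plaque gene, and *GTF2B* (0.992), a general transcription factor gene. *CAPN2* had 16.16, 16.46 and 16.30 in the calcitriol pools and 16.83, 17.00 and 16.85 in the vehicle pools. Among the 8223 genes compared, 119 had an r above 0.95. Such correlations over 6 arrays share the difference between the groups and the brightness of each array.

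*MST1R* (chromosome 3) encodes RON, the receptor of macrophage-stimulating protein and the closest relative of MET. Its signal was 9.62, 8.88 and 8.55 in the calcitriol pools and 8.98, 8.99 and 8.23 in the vehicle pools. The groups overlapped widely, and calcitriol pool 1 alone lay above all vehicle pools. The log2 difference was 0.28 (standard error 0.32, 95% interval -0.44 to 1.01), with an adjusted p of 0.954 in limma, and it was -0.018 without calcitriol pool 1. The difference between the responses of *MET* and *MST1R* was -1.05 on the log2 scale (95% interval -2.38 to 0.28). Taken array by array, the signal of *MET* minus that of *MST1R* did not overlap between the groups, which again gives the smallest p, 0.1, in an exact two-sided permutation test over the 20 splits of the arrays (0.2 after adjustment over the 4 pairs of related genes compared, of which the pairs with *FGFR3* and with *SPRY4* are not reported because these genes were dimmer than the negative controls).

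*AXL* (chromosome 19) encodes the receptor of the vitamin K-dependent ligand GAS6 and is linked to invasion and drug tolerance of carcinoma cells. Its signal was 13.50, 13.71 and 13.10 in the calcitriol pools and 13.72, 14.07 and 13.80 in the vehicle pools. The groups did not overlap, but the highest calcitriol pool lay only just below the lowest vehicle pool (13.712 against 13.720). Groups that did not overlap, with calcitriol lower, were found for 15.5% of coding genes above the negative controls. The log2 difference was -0.42 (standard error 0.21, 95% interval -0.91 to 0.059, p = 0.0777 and adjusted p = 0.915 in limma, exact permutation p = 0.1), a fold of 1.34, so *AXL* was not called. Its difference was -0.26 without calcitriol pool 3 and lay between -0.56 and -0.32 without any other single array. With each array centred on coding genes above the negative controls it was -0.25, and with the arrays centred on the exogenous control RNAs -0.082.

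*FGFR2* (chromosome 10) and *FGFR3* (chromosome 4) encode receptors of fibroblast growth factors. *FGFR2*, whose splice form in epithelial cells binds ligands made by the stroma, had signals of 12.73, 12.97 and 12.68 in the calcitriol pools and 12.98, 13.45 and 12.72 in the vehicle pools. The groups overlapped, and the largest gap was between vehicle pool 2 and the rest. The log2 difference was -0.25 (standard error 0.22, 95% interval -0.76 to 0.25, adjusted p = 0.937 in limma), and it was -0.053 without vehicle pool 2 and -0.42 without vehicle pool 3. *FGFR3* had signals of 3.04, 3.14 and 3.01 in the calcitriol pools and 3.01, 3.01 and 2.99 in the vehicle pools. These values lie below the median of the negative controls, so no fold is given for *FGFR3*.

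**Figure D2:**
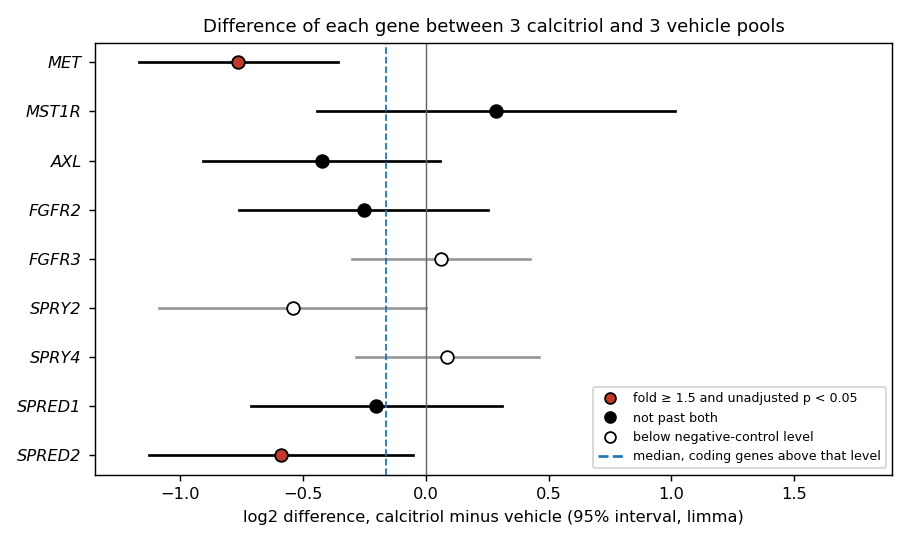
Log2 difference between calcitriol and vehicle (horizontal axis, log2 units) for each of the 9 genes (rows), with the 95% interval from limma as a line. Red points passed the fold and the unadjusted p, open points lie below the negative controls, and the dashed line is the median of coding genes above the negative controls (-0.16), to the right of MET (-0.76), SPRED2 (-0.59) and AXL (-0.42).

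The Sprouty genes *SPRY2* (chromosome 13) and *SPRY4* (chromosome 5) encode feedback inhibitors whose transcription follows ERK activity, and both were dim. *SPRY2* had signals of 3.83, 4.39 and 4.17 in the calcitriol pools and 4.66, 4.33 and 5.04 in the vehicle pools. Calcitriol pool 2 lay above vehicle pool 2, so the groups overlapped, and every value was below 6.32. The difference in log2 signal was -0.54 (standard error 0.24, p = 0.0506 and adjusted p = 0.915 in limma, exact permutation p = 0.2), and no fold is given because neither group reached that level. It was past the threshold for a call without calcitriol pool 2 (-0.67) or vehicle pool 2 (-0.72). *SPRY4* had 3.36, 3.39 and 3.26 in the calcitriol pools and 3.34, 3.25 and 3.15 in the vehicle pools, and all of these lie below the median of the negative controls. The array thus gives no usable level for *SPRY4* in these cells.

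*SPRED1* (chromosome 15) and *SPRED2* (chromosome 2) encode membrane-bound inhibitors of RAS activation and were above the negative controls in every pool. *SPRED2* had signals of 8.31, 8.90 and 8.15 in the calcitriol pools and 9.27, 8.88 and 8.99 in the vehicle pools. Calcitriol pools 1 and 3 lay below all vehicle pools, and calcitriol pool 2 lay just above vehicle pool 2. The log2 difference was -0.59 (standard error 0.24, 95% interval -1.13 to -0.055), a fold of 1.51, with p = 0.0345 before and 0.915 after adjustment in limma and 0.2 in the exact permutation test. The call was lost under quantile normalization (-0.47), with each array centred on coding genes above the negative controls (-0.42), with the exogenous controls (-0.25), with ordinary variances and without calcitriol pool 1 (-0.52), calcitriol pool 3 (-0.44), vehicle pool 1 (-0.48) or vehicle pool 3 (-0.62).
*SPRED1* had signals of 7.36, 8.12 and 7.86 in the calcitriol pools and 7.84, 8.01 and 8.10 in the vehicle pools. The calcitriol pools spread wider than the vehicle pools and covered their whole range. The log2 difference was -0.20 (standard error 0.22, 95% interval -0.71 to 0.31, adjusted p = 0.953 in limma), and it was 0.0056 without calcitriol pool 1 and -0.37 without calcitriol pool 2. The responses of *SPRED1* and *SPRED2* differed by 0.39 on the log2 scale (95% interval -0.36 to 1.14; exact permutation test, two-sided, p = 0.3, adjusted p = 0.3), and no difference between them was detectable with 3 pools a group.

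Among the 6 genes above the negative controls, the highest calcitriol signal was that of pool 2 in all but *MST1R*, and calcitriol pool 2 was also the brightest calcitriol array over coding genes above the negative controls. In the vehicle pools, the highest signal was that of pool 2 for *MET*, *MST1R*, *AXL* and *FGFR2*. It was that of pool 3 for *SPRED1* and of pool 1 for *SPRED2*, for which vehicle pool 2 was the lowest. Vehicle pool 2 was likewise the brightest vehicle array over those coding genes (mean 10.16, against 10.01 and 10.02 for pools 1 and 3). Over the 6 arrays, Pearson's r was 0.77 between *MET* and *AXL*, 0.75 between *MET* and *SPRED2*, 0.76 between *AXL* and *SPRED2* and -0.46 between *MET* and *MST1R*. These correlations come from 6 arrays that share treatment and brightness and are given as a description. The part of array brightness in the lower signals of *MET* and *SPRED2* was not tested beyond the centred values above.

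**Figure D3:**
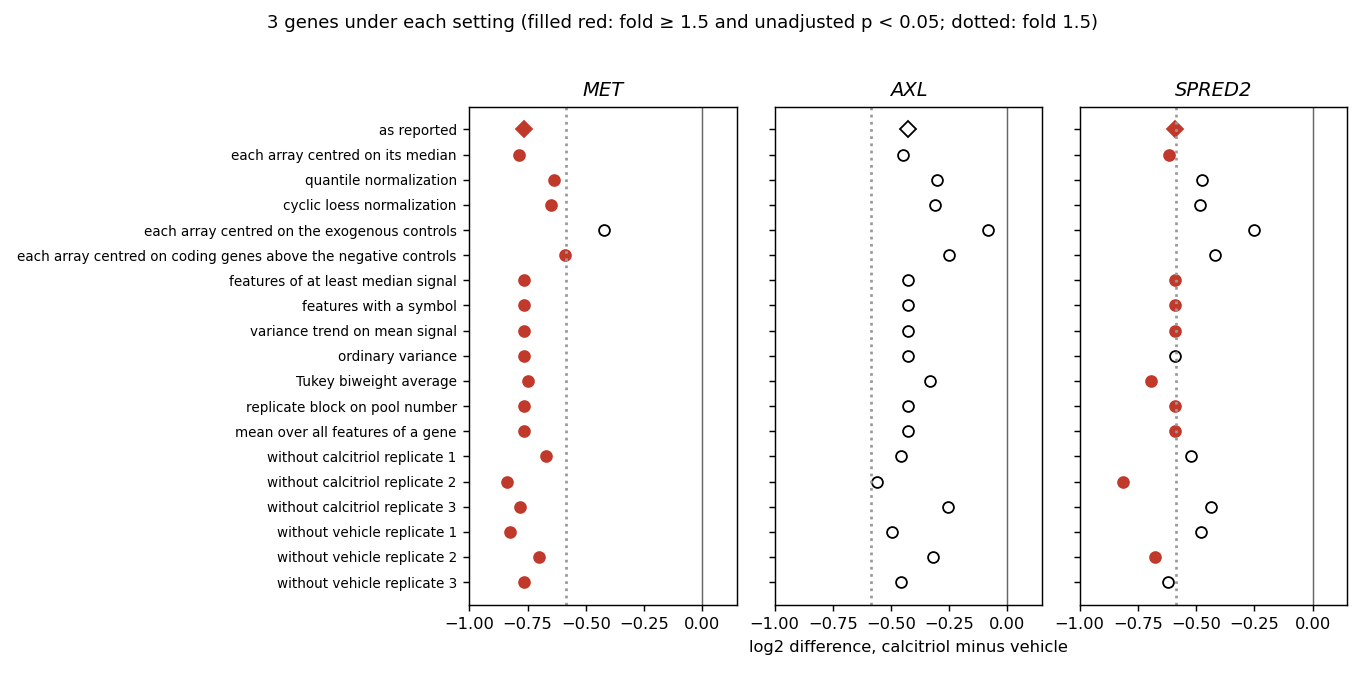
Log2 difference (horizontal axis, log2 units) of MET, AXL and SPRED2 under the reported fit (diamond) and each alternative setting (circles, rows), filled red where the fold was at least 1.5 and the unadjusted p under 0.05. MET stays negative throughout, from -0.84 to -0.42, AXL is past both thresholds in no setting, and SPRED2 crosses the dotted line of a 1.5-fold difference in both directions.

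Further genes of the pathway were taken from 7 lists, chosen with earlier results of these data known. Of the 78 genes, 69 were measured by a feature of their own. Over these lists 5 genes were called lower and 0 higher, 48 had a negative log2 difference, and the median was -0.11, against -0.093 over all coding genes, of which 2.87% were called lower and 0.353% higher. The groups did not overlap, with calcitriol lower, for 9 of the 69, against 11.2% of all coding genes. The lists were ordered from ligands to transcriptional output.
Among 16 ligand genes, the collagen ligands of DDR1 and the binding protein gene *FGFBP1* included, 1 was called lower and 0 higher (median log2 difference -0.010). This was *FGFBP1*, whose protein releases fibroblast growth factors from the matrix, with 9.01, 9.05 and 8.26 in the calcitriol pools and 9.92, 9.54 and 9.19 in the vehicle pools (-0.78, standard error 0.28). Its call was lost without calcitriol pool 3 (-0.52) or vehicle pool 1 (-0.59). *GAS6*, the ligand gene of AXL, had 5.32, 6.40 and 5.73 in the calcitriol pools and 7.03, 6.50 and 6.00 in the vehicle pools, overlapping and around the level of the negative controls, and was called lower without calcitriol pool 2 (-0.99) or vehicle pool 3 (-0.95). *HGF* lay below the negative controls in both groups (mean 4.18 over the 6 arrays). Of the 16, only 4 lay above them.
Among 9 genes of related receptors, 0 were called in either direction (median -0.0040). Only 4 of the 9 had a mean signal above the negative controls, and the median includes the dim ones. *EGFR*, the receptor gene of epidermal growth factor, had 14.34, 14.85 and 14.74 in the calcitriol pools and 14.70, 15.20 and 15.26 in the vehicle pools (-0.41, standard error 0.23), with overlapping groups. It was called lower without vehicle pool 1 (-0.59) and had -0.26 without calcitriol pool 1. *ERBB2* had a log2 difference of -0.41 (standard error 0.21), and was not called whichever array was left out. Averaged over all its features, the difference of *ERBB2* was -0.26. Among 7 genes of proteases that activate HGF or shed receptors and of protease inhibitors, 0 were called (median -0.12). The matriptase gene *ST14* had -0.24 (standard error 0.21) and the protease inhibitor gene *SPINT2* -0.17 (standard error 0.17).
Among 13 measured adaptor and ubiquitin ligase genes, 0 were called, while 12 had a negative difference (median -0.17, close to the -0.16 of coding genes above the negative controls). The MET docking protein gene *GAB1* had 10.54, 11.46 and 11.08 in the calcitriol pools and 11.44, 11.62 and 11.30 in the vehicle pools (-0.42, standard error 0.25). It was called lower without calcitriol pool 2 (-0.64), and had -0.18 without calcitriol pool 1. *LRIG1*, which promotes receptor degradation, had -0.40 (standard error 0.21), and -0.21 without vehicle pool 2. Averaged over all its features, the difference of *LRIG1* was -0.13. Among 9 measured genes of the RAS to ERK core, 0 were called (median -0.048). *MAP2K2*, the gene of a MEK kinase, had -0.26 (standard error 0.20) and the scaffold gene *KSR1*, dimmer than the negative controls, -0.19 (standard error 0.23).
Among 7 measured genes of other feedback inhibitors, 1 was called lower and 0 higher. This was *ERRFI1*, which binds and inhibits EGFR, with 10.87, 11.15 and 11.62 in the calcitriol pools and 11.75, 11.77 and 12.25 in the vehicle pools (-0.71, standard error 0.24). Its call was lost without calcitriol pool 1 (-0.54) or vehicle pool 3 (-0.55). The Sprouty gene *SPRY1*, unlike *SPRY2* and *SPRY4*, was above the negative controls, with 6.80, 6.73 and 6.89 in the calcitriol pools and 7.39, 7.19 and 7.06 in the vehicle pools. Its groups did not overlap, but its log2 difference of -0.41 (standard error 0.17) was under a 1.5-fold difference.
Among 8 genes that serve as a readout of ERK-driven transcription, 3 were called lower and 0 higher (median -0.34). Only 4 of the 8 had a mean signal above the negative controls. Over all coding genes, 2.87% were called lower. The list was chosen with earlier results of these data known, and the authors had already reported *EPHA2* as lowered, so these shares are not a test. *EPHA2*, an ephrin receptor gene, had 6.25, 7.03 and 6.80 in the calcitriol pools and 7.42, 7.78 and 7.80 in the vehicle pools (-0.97, standard error 0.24). *DUSP6*, the gene of an ERK phosphatase, had 5.09, 4.91 and 4.81 in the calcitriol pools and 5.53, 5.73 and 5.85 in the vehicle pools. The signal of *DUSP6* met both criteria of a call, but it was dimmer than 6.32 in every pool, so no fold is printed. *CCND1*, the gene of cyclin D1, had 11.75, 11.54 and 12.17 in the calcitriol pools and 12.57, 12.46 and 12.36 in the vehicle pools (-0.64, standard error 0.21). The other 5 genes were not called, and the log2 differences of the 8 ran from -0.97 to 0.072. In all 3 called genes the groups did not overlap, and their adjusted p in limma was 0.915. The call of *CCND1* was lost without calcitriol pool 2 (-0.50). Under quantile normalization and under centring on the coding genes above the negative controls or on the exogenous control RNAs, the calls of *FGFBP1*, *ERRFI1* and *CCND1* were lost, and with the exogenous control RNAs that of *DUSP6* as well, leaving *EPHA2*. The signs given for the lists are those of the deposited scaling, since centring on the exogenous control RNAs moved the median log2 difference of all features to 0.34.

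**Figure D4:**
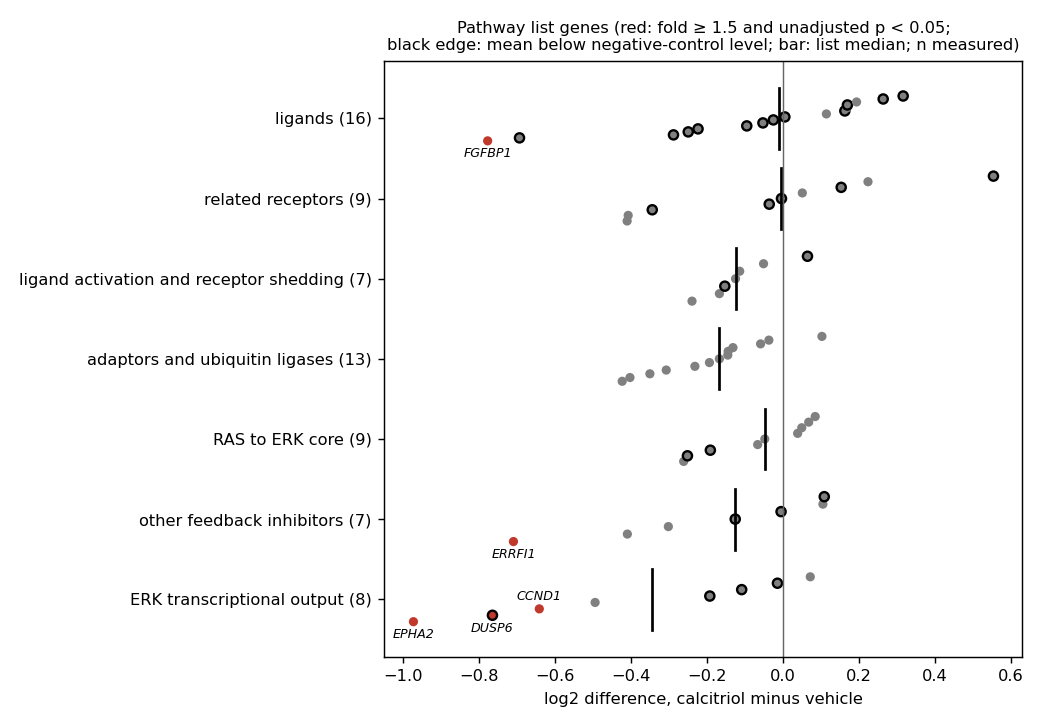
Log2 difference between calcitriol and vehicle (horizontal axis, log2 units) of the measured genes of the 7 pathway lists (rows, with the number measured), each point a gene and each bar a list median. The 5 red points (EPHA2, FGFBP1, DUSP6, ERRFI1 and CCND1) passed the fold and the unadjusted p, all with a negative difference.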

How the data were processed

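The deposited log2 signals were used as they stand, 1 value per feature and array; background correction and normalization were done by the authors in Transcriptome Analysis Console, for which the sources used here name neither algorithm nor annotation build. The number of arrays, 3 a group, limits the precision, and no pair of arrays was identical (correlations 0.981 to 0.984). Features with exactly 1 symbol (36176) were named from the platform annotation, the brightest standing for a gene, and 1119 features with several symbols were left out.

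Groups were compared in limma 3.58.1 (R 4.3.3) with moderated variances (prior degrees of freedom 4.51), two-sided p-values and Benjamini-Hochberg adjustment over all 138745 features. Only the limma fit was tested on simulated data, which had independent noise and no shared array brightness. Differences between related genes were tested by exact permutation over arrays, with intervals from the pooled variance of the array differences. The genes, lists and tests were chosen with earlier results of these data known. The text names all members, of each pathway list every called gene and, where fewer than 2 were called, those with the smallest p up to 2, the 3 coding genes most correlated with *MET*, and *CYP24A1*; *HGF*, *PROS1*, *FGF18* and *MERTK* were named after their values were seen. Alternatives were other scalings, filters, variance models, averages, thresholds, blocking on pool number and omission of single arrays; centring on coding genes above the negative controls was chosen after seeing the data. Promoter windows are from RefSeq (GRCh38.p14), and the GC box was added to the motifs after the sequences were seen. Blots and qPCR were not analysed here.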

Additional observations from a re-analysis of the deposited data

How the results depend on the processing

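The count of genes called lower, 2 of the 9, was 1 under quantile normalization, cyclic loess, centring on coding genes above the negative controls and ordinary variances, where *MET* remained, and 0 after centring on the exogenous controls or at an adjusted p under 0.05. It ran from 1 to 3 when each array was left out in turn, and the count of 3 included *SPRY2*, which was below the negative controls on every array. No setting called any of the 9 higher. Of the pathway genes, 5 were called lower in the reported fit. That count was 2 under quantile normalization and centring on coding genes (*EPHA2* and *DUSP6*). It was 3 under cyclic loess, ordinary variances and Tukey biweight averages, 1 with the exogenous controls (*EPHA2*) and 0 at an adjusted p under 0.05. Tukey biweight averages changed the log2 difference only, and the p-values used with them were those of the reported fit. With the exogenous controls 3 were called higher (*PROS1*, *FGF18* and *MERTK*, all below the level of the negative controls). That centring moved the median of all features to 0.34, and centring on coding genes moved it to 0.17.
The sign turned, without a call, for *FGFR2* (0.088), *SPRED1* (0.14), *MAP2K2* (0.081), *KSR1* (0.15), *ST14* (0.10) and *SPINT2* (0.18) with the exogenous controls, for *SPINT2* (0.0063) with centring on coding genes and for *MST1R* (-0.040) with Tukey biweight averages. Leaving out each array in turn, *MST1R* ran from -0.018 to 0.52 and *SPRED1* from -0.37 to 0.0056. The cause of these shifts was not tested.
Pool numbers are shared by the groups, but the deviations of equally numbered pools correlated at 0.13, 0.018 and 0.057, so they were not treated as pairs. Calcitriol pools 1 and 3 correlated best with the vehicle pool of their own number. Calcitriol pool 2 correlated better with vehicle pool 3 (0.082) than with its own number. With the replicate block, 2 of the 9 genes and 5 pathway genes were called lower, *MET* and *SPRED2* among them. The 3 dim genes, *FGFR3*, *SPRY2* and *SPRY4*, are limited by signal, not by the number of arrays alone.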

Other observations

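The feature that carries both *DDR1*, the gene of a collagen receptor, and the microRNA gene *MIR4640* was counted for neither gene, because its signal cannot be assigned to one of them. It had 11.99, 11.72 and 11.92 in the calcitriol pools and 11.74, 11.93 and 11.98 in the vehicle pools, above the negative controls on all 6 arrays. The groups covered each other, with a log2 difference of -0.0035 (standard error 0.17, 95% interval -0.40 to 0.39, adjusted p = 0.999 in limma).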
